A study of Mus musculus with 15 samples.

Results

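The 9 cohesin genes described here were Rec8, Rad21l, Stag3, Smc1b, Rad21, Stag1, Smc3, Sgo2a and Nipbl. They were taken from the 32285 genes of the count matrices by their symbols, and each symbol matched 1 row. Their transcripts were counted by droplet single-cell RNA sequencing (3′ chemistry with unique molecular identifiers, UMIs) in testes of DBA/2J male mice, with 1 testis of 1 mouse per library and 3 mice in each of 5 groups. JQ1 is a small molecule that occupies the acetyl-lysine pocket of BET bromodomain proteins, among them the testis protein BRDT. Treated mice (T, aged 10 weeks) received 50 mg/kg JQ1 daily by intraperitoneal injection for 3 weeks, and mice of the vehicle group VC-T (10 weeks) received vehicle over the same period. Recovery mice (R, 16 weeks) had the same course of JQ1 followed by 6 weeks without it, and VC-R (16 weeks) was their vehicle group. Untreated mice (UC) were 15 weeks old, so age and treatment cannot be told apart in T against UC, and UC served as a control both for T and for R.

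Cohesin is a ring of an SMC1 and an SMC3 protein closed by a kleisin subunit and joined by a STAG protein. It holds sister chromatids together and extrudes chromatin loops. In mitotic cells the kleisin is RAD21 and the STAG subunits are STAG1 and STAG2. Germ cells entering meiosis add the kleisins REC8 and RAD21L together with STAG3 and SMC1β, which build the chromosome axes on which homologs pair and recombine. SMC3 is shared by both kinds of ring. NIPBL loads cohesin on chromatin, and shugoshin 2 (SGO2, from Sgo2a) shields REC8 at centromeres from separase during the first meiotic division.

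All 9 genes are protein coding in the mm10 annotation (GENCODE vM21). Smc1b, Stag1 and Sgo2a overlap other annotated genes, of which Kctd18 on the opposite strand of Sgo2a is protein coding and the others are processed pseudogenes or unclassified transcripts. Reads from overlapping genes on the same strand, as in Stag1, cannot be separated in the counts. RefSeq promoter windows (GRCm38.p6, 250 bases before to 50 bases after a start site, 300 bases in all) were matched for 7 of the 9 genes. The heptamer TTCCCGC, the core of the element read by E2F factors, was searched on both strands (GCGGGAA on the other). It occurred in a window of 4 of these 7 genes (Stag3, Smc1b, Stag1 and Sgo2a) and in 4.60% of 32851 windows of the same length. For Sgo2a, 1 of 2 windows held it, at a start upstream of the annotated gene span. The Stag1 window belongs to a start inside its annotated gene span, which begins at position 100597798 of chromosome 9. CACGTG (the E-box) was found in the Stag3 window alone among the members and in 7.15% of all windows. TGACGT, searched on both strands, was in no member window and in 7.51% of all. A match is a description of letters and not a bound site. The windows of the meiotic subunits Stag3 and Smc1b and of the mitotic subunit Stag1 are shown 5′ to 3′ on the gene's strand, with the heptamer in capitals, because it begins 3, 48 and 16 bases before their start sites.
Stag3 (chr5:138280259-138280558, plus strand): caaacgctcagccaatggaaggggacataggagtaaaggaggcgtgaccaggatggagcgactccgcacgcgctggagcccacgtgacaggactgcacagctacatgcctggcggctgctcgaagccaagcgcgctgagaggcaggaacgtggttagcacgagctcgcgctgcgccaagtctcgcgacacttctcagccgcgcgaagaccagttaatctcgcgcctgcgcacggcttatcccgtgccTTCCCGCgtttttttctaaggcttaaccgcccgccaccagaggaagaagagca
Smc1b (chr15:85131908-85132207, minus strand): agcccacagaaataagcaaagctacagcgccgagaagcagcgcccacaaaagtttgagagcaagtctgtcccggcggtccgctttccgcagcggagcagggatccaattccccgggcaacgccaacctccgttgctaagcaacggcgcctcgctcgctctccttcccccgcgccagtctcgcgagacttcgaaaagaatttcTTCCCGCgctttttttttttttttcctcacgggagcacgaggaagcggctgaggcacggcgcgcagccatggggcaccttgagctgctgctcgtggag
Stag1 (chr9:100643198-100643497, plus strand): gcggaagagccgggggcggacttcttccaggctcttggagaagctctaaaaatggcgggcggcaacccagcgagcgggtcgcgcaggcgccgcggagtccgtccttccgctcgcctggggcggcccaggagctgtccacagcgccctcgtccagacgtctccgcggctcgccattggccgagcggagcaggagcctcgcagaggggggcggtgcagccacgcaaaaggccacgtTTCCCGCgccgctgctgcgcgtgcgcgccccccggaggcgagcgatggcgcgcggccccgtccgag

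The 15 libraries held 72362 cells after filtering, 2430 to 12744 per library, with a median of 2455 to 4202.5 UMIs per cell. Cells were clustered without the 9 genes and the related cohesin genes, and clusters were named from marker lists as spermatogonia-like, spermatocyte-like, spermatid-like, spermatozoa-like, Sertoli-like, Leydig-like or macrophage-like. Spermatocyte-like cells were split into leptotene and zygotene, pachytene, and diplotene and dividing clusters. Clustering the spermatogonia-like cells again gave undifferentiated and differentiating clusters and a cluster led by Prss50. The Prss50-led cluster was given no stage name, though it scored highest for leptotene and zygotene markers. In UC its 7 spermatocyte markers summed to 1797 to 1857 unscaled CPM and its 7 spermatogonia markers to 1244 to 1419.7. A further 641 of 2131 spermatogonia-like cells fell in 4 clusters that entered the class but no stage. Either a marker of another class led these clusters or they scored highest for pachytene or for diplotene and dividing markers. UMIs were summed per library and cell group and are given as CPM (UMIs per 1000000 UMIs of that cell group, scaled by TMM), which measures the share of a cell group's RNA and not RNA per cell. Levels in pseudotime bins and sums over markers are given as unscaled CPM, without TMM. Since 3′ counts were used, CPM is compared between stages and groups and not between genes. T had 0 to 2 spermatozoa-like cells per library against at least 894 in every other library except VC-T 1, which had 0. VC-T 1 was left out of the tests, and its values are given where they bear on a result. Libraries shared at most 46 cell barcodes, 0.554% of the smaller library.

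In untreated testes Stag3 and Smc1b peaked in leptotene and zygotene cells and were still counted in spermatids. Rad21, Stag1 and Smc3 were high in spermatogonia and lower in pachytene, and Rad21 and Smc3 were higher again in spermatids. These levels are descriptions, without a test. Stag3, the meiosis-specific STAG subunit, reached 231 ± 57.5 CPM (SD, n = 3) in leptotene and zygotene cells, with 171, 239 and 285 CPM in the 3 libraries. It stood at 149.6 ± 4.48 CPM in pachytene, 117 ± 12.8 CPM in diplotene and dividing cells, 63.0 ± 5.77 CPM in spermatids and 13.6 ± 1.40 CPM in spermatozoa. No library of the leptotene and zygotene, pachytene, spermatid or spermatozoa steps overlapped with the next of these 4 steps. Smc1b, which encodes the meiotic SMC1β, stood at 632 ± 18.9 CPM in differentiating spermatogonia and 1356 ± 96.4 CPM in leptotene and zygotene, then 407 ± 45.8 CPM in pachytene and 349 ± 41.6 CPM in spermatids, of which the last pair overlapped between libraries. Its level in spermatozoa was 40.7 ± 6.81 CPM.

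The meiotic kleisins were sparse. Rad21l was counted 16 times in leptotene and zygotene cells of UC, at 12.2, 36.1 and 38.5 CPM, 4 times in the Prss50-led cells and 2 times in differentiating spermatogonia. No Rad21l UMI was counted in 8441393 UMIs of UC pachytene cells, which allows up to 0.355 CPM by counting error alone. In UC spermatids 1 Rad21l UMI was counted in 14046577. Rec8 was near the floor in pachytene at 1.13 ± 0.517 CPM and was counted far more often in spermatids, at 26.1, 34.9 and 36.3 CPM, a ratio of means of 28.7. In the Prss50-led cells its 2 libraries stood at 0 and 130.0 CPM, so the mean there rests on 1 library and its rank above spermatids is not resolved.

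Rad21, the mitotic kleisin, had its highest levels in differentiating (178 ± 33.5 CPM) and undifferentiated spermatogonia (188 and 103 CPM in the 2 libraries with at least 10 such cells), which overlapped. It stood at 25.5 ± 3.06 CPM in leptotene and zygotene and 10.9 ± 2.27 CPM in pachytene and was higher again in spermatids, at 51.7, 81.5 and 66.4 CPM, with no overlap with any of the 3 spermatocyte stages. Smc3, the SMC subunit common to both rings, went from 493 ± 76.7 CPM in leptotene and zygotene to 10.9 ± 2.89 CPM in pachytene, a ratio of 45.1, and stood at 118 ± 10.1 CPM in spermatids. Stag1, a mitotic STAG subunit, stepped down from 395 ± 83.8 CPM in leptotene and zygotene to 62.3 ± 5.88 CPM in pachytene and 15.4 ± 4.62 CPM in spermatids. For Smc3 the 4 groups from undifferentiated spermatogonia to leptotene and zygotene each overlapped with their neighbours in the order of levels.

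Sgo2a and Nipbl showed little difference between the spermatocyte stages. Sgo2a lay at 118 ± 38.7 CPM, 123 ± 6.09 CPM and 123 ± 29.8 CPM in the 3 spermatocyte stages, which overlapped, and at 7.93 ± 1.60 CPM in spermatids. Nipbl went from 90.2 ± 29.1 CPM in differentiating spermatogonia to 668 ± 65.7 CPM in leptotene and zygotene and 728 ± 10.7 CPM in pachytene, then stood at 227 ± 34.6 CPM in spermatids.

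**Figure D1:**
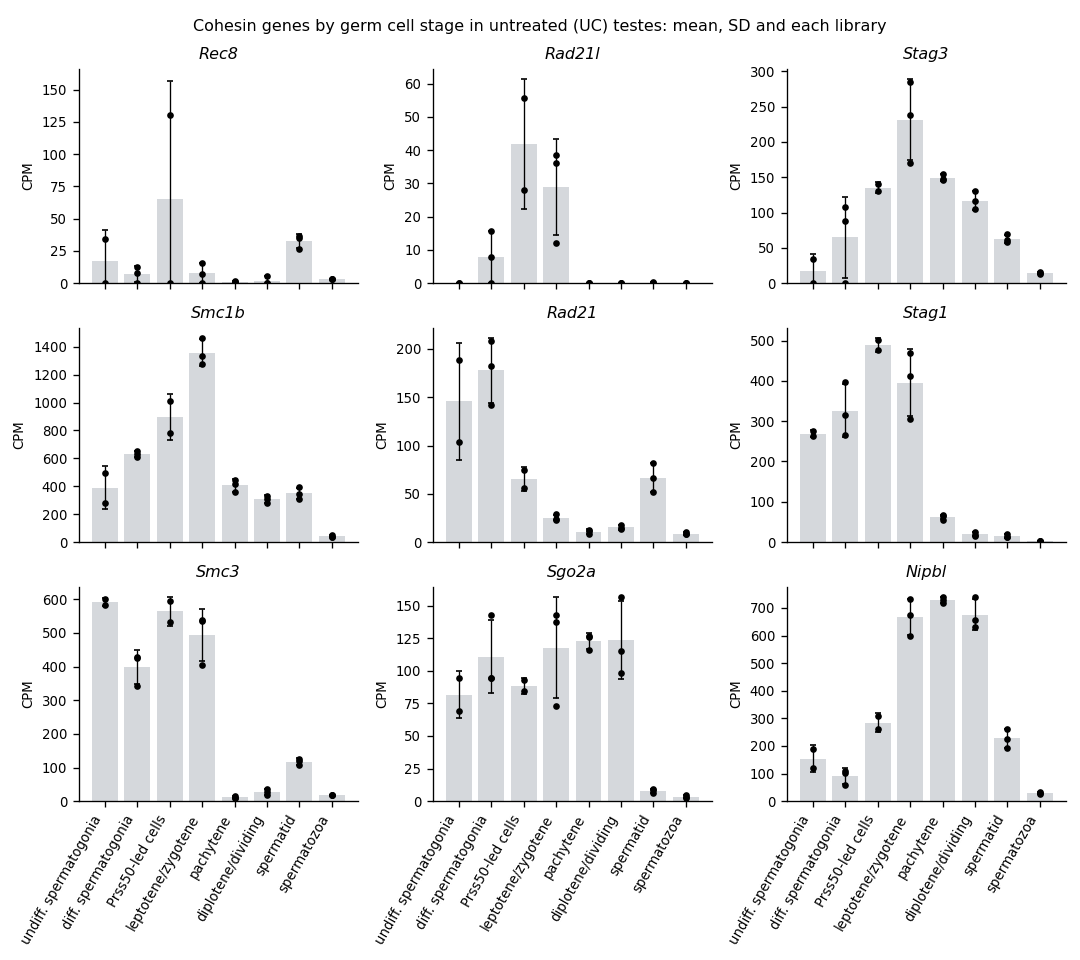
Level of each cohesin gene (CPM, vertical axis, a separate scale per gene) in 8 germ cell groups of untreated testes (horizontal axis). Bars are means, error bars SD and points the 2 or 3 UC libraries with at least 10 cells. Smc3 is at 10.9 CPM in pachytene between 493 CPM in leptotene and zygotene and 118 CPM in spermatids.

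The gene whose profile over the 20 UC library and stage values was most like each member, among 16673 genes, is given as a description of values that share libraries. Pearson r on the log scale was 0.989 for Stag1 with Ankrd17, 0.981 for Sgo2a with Smc6, 0.978 for Smc1b with Tomm20 and 0.976 for Smc3 with Thoc2. It was 0.973 for Stag3 with Cdip1, 0.973 for Nipbl with Abca16, 0.934 for Rad21 with Gpkow, 0.904 for Rec8 with Gm29663 and 0.887 for Rad21l with Ern1. Of these 9 genes Smc6, of the SMC5/6 complex, was also on the list of other SMC rings used here. In macrophage-like cells of R, which should lack the meiotic subunits, Smc1b was counted at 101, 151 and 156 CPM and Stag3 at 36.6, 12.6 and 38.9 CPM. Whether free RNA in droplets left these counts was not tested. In VC-T 2, VC-R 1 and VC-R 2, with 13, 11 and 10 macrophage-like cells, Smc1b was counted 3, 6 and 0 times and Stag3 1, 0 and 0 times. Leydig-like cells of UC 1 and UC 3 gave 6 and 5 Smc1b UMIs among 35527 and 41207, and no Stag3 UMI. Smc1b in UC spermatozoa (47.9, 34.4 and 39.7 CPM) did not exceed the Smc1b values of the macrophage-like cells of R. Stag3 in UC spermatozoa (12.1 to 15.0 CPM) did not exceed their Stag3 range.

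Ordered along pseudotime in 10 bins of equal cell number per class over all libraries, the members changed within stages as well as between them. In UC spermatocytes Smc3 went from 220.1 unscaled CPM in bin 1 to 5.86 in bin 5 and back to 85.6 in bin 10, while Nipbl went from 440.1 to 1046. Stag1 went from 295 to 24.6 at bin 8. In spermatids Rad21 went from 14.8 in bin 1 to 149.8 in bin 8, while Rec8 went from 50.6 to 4.02 in bin 10, Smc3 from 184 to 56.3 and Nipbl from 472 to 51.7. Rad21 thus ran opposite to the other 3 within the spermatid class.

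**Figure D2:**
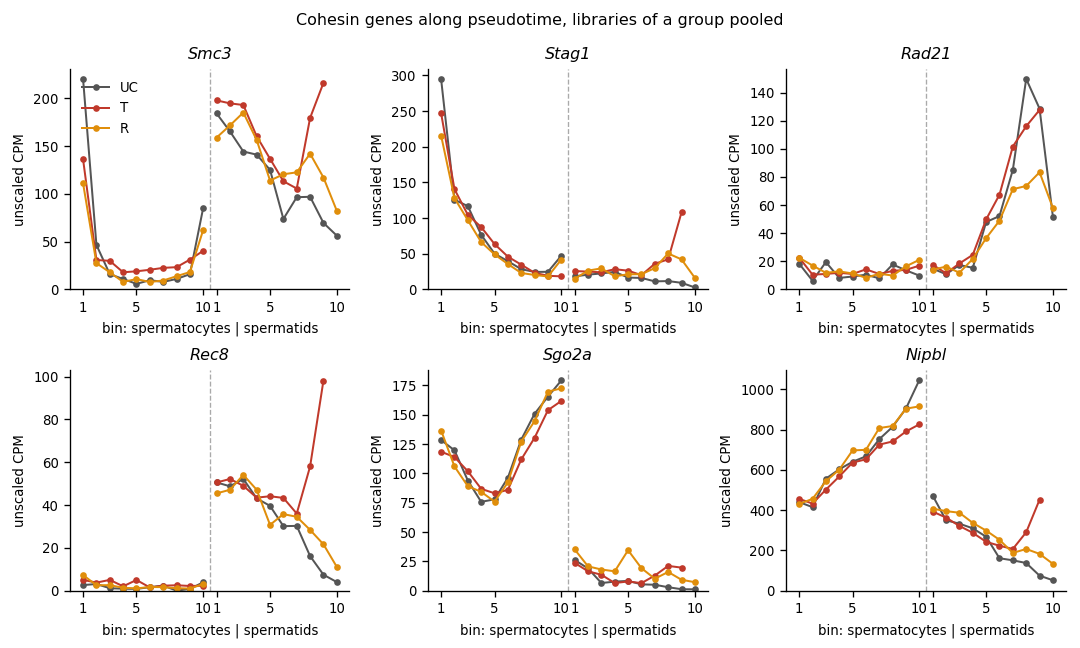
Unscaled CPM (vertical axis) of 6 cohesin genes in pseudotime bins 1 to 10 of spermatocytes, left of the dashed line, and bins 1 to 10 of spermatids, right of it, for UC, T and R with the libraries of a group pooled. Bins with fewer than 50 cells of a group are not drawn, and in UC spermatids Rad21 runs from 14.8 in bin 1 to 149.8 in bin 8.

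In spermatids of treated mice Rad21 was lower and Smc3 and Nipbl were higher than in both control groups. By edgeR's quasi-likelihood test with Benjamini-Hochberg adjustment, 5 of 8 tested members passed an adjusted p of 0.05 in T against UC and 4 of 8 in T against VC-T. The background is high, since 46.7% and 44.8% of all genes tested in spermatids were called in these comparisons, and the share of members called is read against it. The median log2 fold change of the members was 0.34 against 0.041 over all genes tested for T against UC. Rad21l was too low to be tested.

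Rad21 fell. Its level was 31.0, 23.0 and 19.0 CPM in T, 51.7, 81.5 and 66.4 in UC, 62.4 and 51.9 in VC-T 2 and 3, and 26.2 in VC-T 1. Every T library lay below every UC and tested VC-T library, and VC-T 1 was as low as T. The log2 fold change was -1.38 ± 0.18 (SE) against UC (adjusted p = 2.65e-05) and -1.21 ± 0.18 against VC-T (adjusted p = 0.000279), and it was called in all fits that left out 1 library.

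Smc3 and Nipbl rose. Smc3 was at 149, 155 and 161 CPM in T, 106, 120.3 and 126 in UC and 122 and 113 in VC-T, so that T lay above all of the tested controls. Its log2 fold change was 0.41 ± 0.088 against UC (adjusted p = 0.00186) and 0.38 ± 0.11 against VC-T (adjusted p = 0.0126). Nipbl, the loader, was at 275, 297 and 276 CPM in T, 194, 225 and 263 in UC and 195 and 203 in VC-T, again without overlap. The log2 fold change of Nipbl was 0.33 ± 0.097 against UC (adjusted p = 0.0136, lost without T 2 or UC 1) and 0.49 ± 0.10 against VC-T (adjusted p = 0.00249). VC-T 1 stood at 149 CPM for Smc3 and 361 for Nipbl, and with this library added to VC-T 0 of the 4 calls against VC-T passed.

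Rec8, the meiotic kleisin, was at 45.6, 38.6 and 38.0 CPM in T and 27.5 and 29.4 in VC-T, without overlap, and its log2 fold change of 0.52 ± 0.14 passed (adjusted p = 0.0126, lost without VC-T 2). Against UC (26.1, 34.9 and 36.3 CPM) the value of 0.35 ± 0.14 did not pass (adjusted p = 0.0597). Stag1 and Sgo2a passed against UC alone, with 0.57 ± 0.19 (adjusted p = 0.0261) and 0.64 ± 0.22 (adjusted p = 0.0303). Stag1 was at 25.4, 20.4 and 23.6 CPM in T and 12.0, 13.5 and 20.7 in UC. Sgo2a was at 12.3, 15.0 and 8.89 CPM in T and 6.14, 8.44 and 9.22 in UC, so Sgo2a and Stag1 each overlapped between the groups, and each call was lost without 1 of several libraries (T 1, UC 1 or UC 2 for Stag1, and T 1, T 2, UC 1 or UC 2 for Sgo2a). The meiotic subunits Stag3 and Smc1b did not pass in either comparison, with 0.15 ± 0.10 and 0.14 ± 0.082 against UC.

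**Figure D3:**
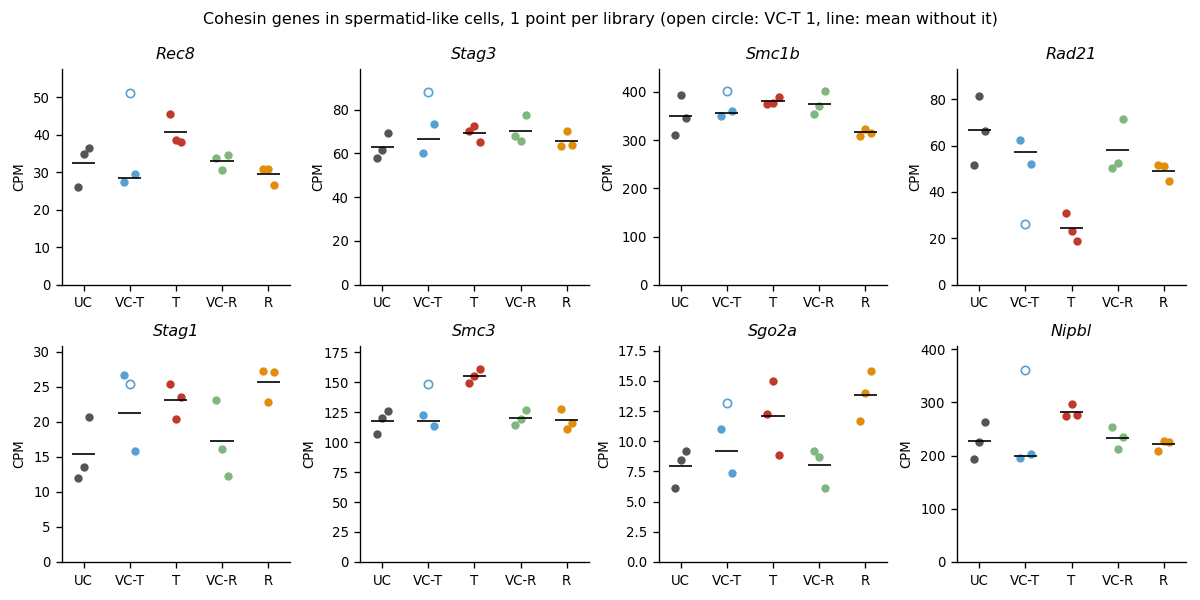
Level of 8 cohesin genes in spermatid-like cells (CPM, vertical axis) in the 5 groups, 1 point per library, the line being the mean and the open circle VC-T 1. The T libraries lie below the UC and tested VC-T libraries for Rad21 and above them for Smc3 and Nipbl.

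The spermatids of T lay earlier in pseudotime. Bins 1 to 4 held 76.7 to 83.4% of T spermatids, against 27.8 to 40.9% in UC, 11.3% and 38.5% in VC-T 2 and 3 and 86.2% in VC-T 1. The 7 spermatocyte markers summed to 752 to 795 unscaled CPM in T spermatids and 349 to 474 in UC, and the 5 spermatozoa markers to 2981 to 3334 and 5659 to 6429, with every marker of both lists detected in each library. When each library contributed the same number of cells per bin (335 cells in T against UC, 284 in T against VC-T), Rad21 stood at -0.32 ± 0.18 against UC (adjusted p = 0.216) and at 0.15 ± 0.25 against VC-T (adjusted p = 0.817), the latter with its sign turned. Smc3 stood at 0.24 ± 0.097 and 0.090 ± 0.17, Nipbl at -0.041 ± 0.079 and 0.051 ± 0.15, and Rec8 at 0.25 ± 0.23 against VC-T. Stag1 and Sgo2a stood at 0.43 ± 0.23 and 0.44 ± 0.31 against UC. After this matching 0 of 8 members passed in either comparison (1 and 0 at an unadjusted p under 0.05), where 21.4% of all genes were called against UC and 3.51% against VC-T, so between spermatids of equal pseudotime no difference in these genes was detectable with these cell numbers. In pooled bins 5, 6 and 7 Rad21 of T was 49.8, 67.4 and 102 unscaled CPM, beside 48.0, 52.2 and 85.1 in UC. These bins lie after bins 1 to 4, which held most T spermatids, and the values do not describe those earlier bins.

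**Figure D4:**
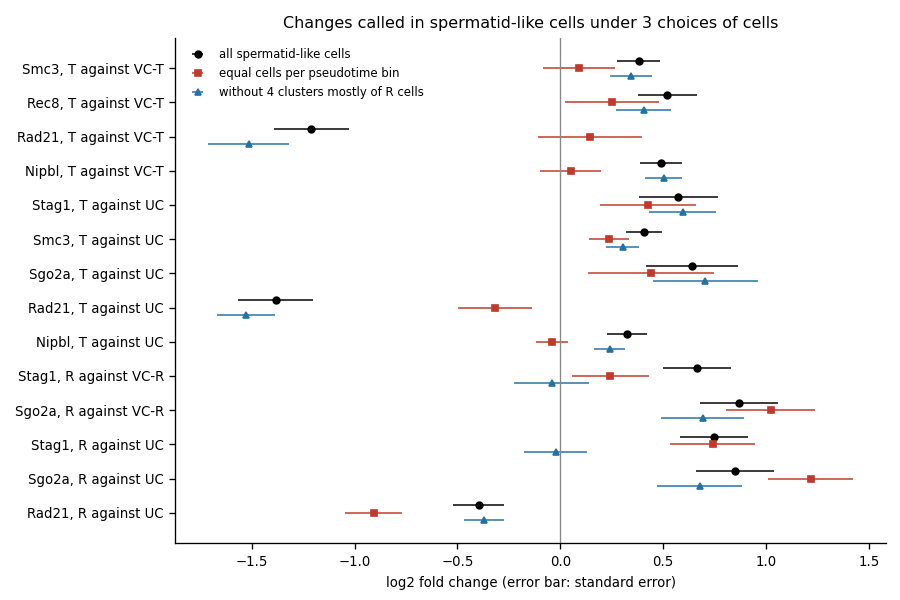
log2 fold change (horizontal axis, error bars SE) of the member changes called in spermatid-like cells (vertical axis, gene and comparison) with all cells, with equal cells per pseudotime bin and without 4 clusters made mostly of R cells. Matching brings Rad21 of T from -1.38 to -0.32 against UC and from -1.21 to 0.15 against VC-T.

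Pachytene is the stage at which Smc3 was lowest in UC, and there it was higher in T. Its level was 22.6, 19.9 and 17.8 CPM in T, 8.88, 14.2 and 9.68 in UC, 12.3 and 7.38 in VC-T 2 and 3, and 14.4 in VC-T 1. All 3 T libraries lay above every UC and VC-T library, VC-T 1 included. The log2 fold change was 0.91 ± 0.19 against UC (adjusted p = 0.00203, called in all 6 fits without 1 library) and 1.02 ± 0.21 against VC-T (adjusted p = 0.00232), where it was 0.73 (adjusted p = 0.0717) without VC-T 3. With VC-T 1 added as a control it was 0.78 (adjusted p = 0.139). With equal cells per pseudotime bin of pachytene (205 and 142 cells per library), an alternative chosen after seeing the data, it was 1.12 ± 0.27 (adjusted p = 0.00351) and 1.25 ± 0.29 (adjusted p = 0.00666), where 12.2% and 9.68% of all genes were called, so the difference was as large between pachytene cells of equal pseudotime. The 6 spermatid markers, all detected in every library, summed in pachytene cells to 94.7 to 167 unscaled CPM in T, 53.4 to 63.2 in UC and 31.7 to 33.0 in VC-T 2 and 3. In VC-T 1 they summed to 153, within the range of T, while the 5 spermatozoa markers summed to 122 to 213 in T and 478 to 611 in UC. Smc3 was also high in spermatogonia, and the 7 spermatogonia markers summed in pachytene cells to 54.8 to 65.3 unscaled CPM in T (6 or 7 detected), 29.8 to 37.3 in UC (3 to 5 detected), 30.2 to 34.9 in VC-T 2 and 3 (4 detected) and 41.1 in VC-T 1 (6 detected), so that T lay above all of these controls, with Sall4 at 0 in UC and VC-T. The parts of spermatid and of spermatogonial RNA in the Smc3 difference were not tested.

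Nipbl and Sgo2a were lower in pachytene cells of T than of UC. Nipbl was at 605, 667 and 577 CPM in T, 728, 718 and 739 in UC, 719 and 729 in VC-T 2 and 3 and 633 in VC-T 1, and VC-R 2 stood at 594. Every T library lay below the UC and tested VC-T libraries, with a log2 fold change of -0.25 ± 0.064 against UC (adjusted p = 0.00913, lost without T 3) and -0.23 ± 0.088 against VC-T, which did not pass (adjusted p = 0.0606). With equal cells per bin the value against UC was -0.22 ± 0.064 (adjusted p = 0.0171). Sgo2a was at 106, 109 and 101 CPM in T and 126, 116 and 126 in UC, a log2 fold change of -0.23 ± 0.075 (adjusted p = 0.0344, called in 2 of 6 fits without 1 library) that was -0.013 ± 0.10 with equal cells per bin. The meiotic subunits Stag3 and Smc1b did not pass in pachytene, with -0.028 ± 0.071 and 0.15 ± 0.074 against UC, and neither did Stag1 or Rad21. Of the 7 members tested in pachytene, 3 were called against UC, where 18.6% of all genes were, and 1 against VC-T, where 24.3% were.

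**Figure D5:**
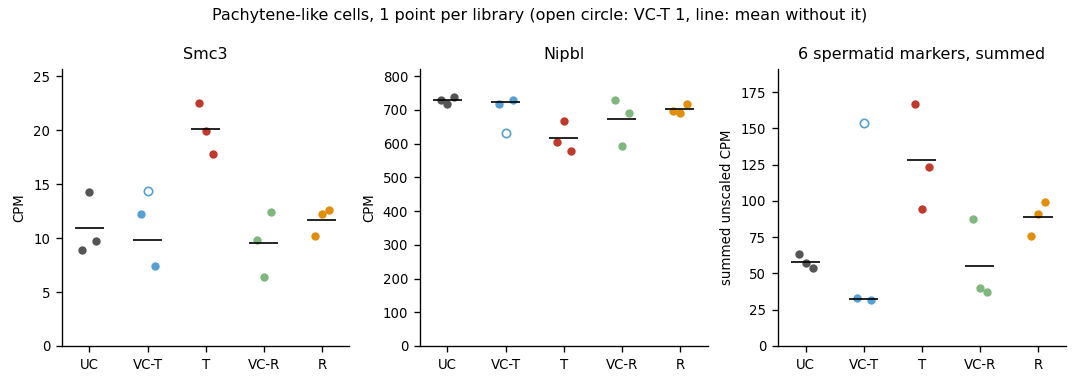
Smc3 and Nipbl (CPM) and the summed level of 6 spermatid markers (unscaled CPM) in pachytene-like cells of the 5 groups, 1 point per library, the line being the mean and the open circle VC-T 1. Smc3 in the 3 T libraries lies above UC and VC-T, while the marker sum of VC-T 1 falls within the range of T.

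At meiotic entry the comparison rested on few treated cells. T held 24, 11 and 12 leptotene and zygotene cells per library against 37 to 121 in UC and 120 to 125 in VC-T 2 and 3. Stag1 was at 579.6, 534 and 741 CPM in T and 305, 412 and 469.8 in UC, without overlap. Stag3 was at 314, 419 and 222 CPM in T and 171, 239 and 285 in UC, which overlapped. The CPM of Smc1b and of Smc3 overlapped between T and UC as well. In T against UC 4 of 5 tested members were called, where 23.1% of 1460 genes were. They were Stag1 (1.14 ± 0.26, adjusted p = 0.000383), Smc1b (0.72 ± 0.19, adjusted p = 0.00265), Smc3 (0.77 ± 0.26, adjusted p = 0.0219) and Stag3 (0.93 ± 0.34, adjusted p = 0.0339), of which the Stag1 call held in all 6 fits without 1 library, that of Smc1b in 5, of Smc3 in 3 and of Stag3 in 1. None of 5 was called against VC-T by edgeR (2 at an unadjusted p under 0.05) or by DESeq2, and 12.5% of all genes were called there. Without a filter on low counts the log2 fold changes of Stag1, Smc1b, Smc3 and Stag3 were 0.60, 0.17, 0.22 and 0.39 and none of the 4 was called. The CPM levels were likewise scaled without this filter, so the called fold changes are larger than the CPM differences. The 7 spermatogonia markers summed to 2174 to 2431 unscaled CPM in T (4 or 5 detected) and 528 to 1023 in UC (5 detected), with Sall4 and Zbtb16 at 0 in both groups. The 7 spermatocyte markers summed to 3481 to 4465 in T and 6127 to 7235 in UC (6 or 7 detected). The part of spermatogonial RNA in the 4 differences was not tested.

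Over all spermatocytes together, 0 of 7 members passed in T against UC by edgeR (3 at an unadjusted p under 0.05) or by DESeq2, where 11.8% of all genes were called. Against VC-T 2 of 8 passed, where 9.61% of all genes did. Smc3 was at 30.8, 24.1 and 24.6 CPM in T and 75.3 and 37.9 in VC-T. Stag1 was at 58.6, 52.4 and 65.4 CPM in T and 96.7 and 71.5 in VC-T, so neither overlapped and VC-T 2 stood highest for both. The log2 fold changes were -1.13 ± 0.24 (adjusted p = 0.0148) and -0.57 ± 0.14 (adjusted p = 0.0294). The earliest pseudotime bin, where both genes are high, held 1.13 to 2.50% of T spermatocytes, 29.5% of those of VC-T 2 and 20.7% of those of VC-T 3. With equal cells per bin the values were -0.37 ± 0.24 and -0.22 ± 0.15, and without VC-T 2 they were -0.54 (adjusted p = 0.142) and -0.33 (adjusted p = 0.235), so neither call held. Against UC, with equal cells per bin, Nipbl was at -0.22 ± 0.061 in T spermatocytes (adjusted p = 0.0131, background 12.9%), a call that the comparison of all cells did not make.

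In spermatogonia 1 of 7 members was called in T against UC and 1 of 8 in T against VC-T, with backgrounds of 6.23% and 11.1%. In both it was Nipbl, at 235, 182 and 207 CPM in T, 121, 146 and 134 in UC and 128 and 150.4 in VC-T, so that T lay above both. Its log2 fold change was 0.64 ± 0.19 (adjusted p = 0.048) and 0.71 ± 0.19 (adjusted p = 0.0265). The calls held in 1 of 6 and 2 of 5 fits without 1 library, and DESeq2 made neither. VC-T 1 was at 323 CPM, above all T libraries. With equal cells per bin Nipbl was at 0.79 against UC (adjusted p = 0.0902) and 0.73 against VC-T (adjusted p = 0.0364), with backgrounds of 10% and 14.8%. The 1 of 6 members that then passed against UC was Smc1b, at 0.55 ± 0.18 (adjusted p = 0.0428). The 4 clusters without a stage took up 31.4% of the spermatogonia-like class in T, beside 21.9% for UC and 21.3% for VC-T with VC-T 1 included, and 1 of them, which scored highest for pachytene markers, had 81 of 837 class members in T beside 3 of 301 in UC and 24 of 559 in the vehicle group. Without the 4 clusters, an alternative chosen after seeing the data, Nipbl was at 0.093 ± 0.22 against UC (adjusted p = 0.931) and 0.20 ± 0.20 against VC-T (adjusted p = 0.737), and 0 of 7 members passed in either (1 and 0 at an unadjusted p under 0.05), with backgrounds of 1.27% and 4.84%. The Nipbl difference was thus not detectable outside these clusters, and in differentiating spermatogonia Nipbl stood at 116, 99.4 and 84.2 CPM in T and 110.4, 103 and 56.9 in UC. In undifferentiated spermatogonia, differentiating spermatogonia and diplotene and dividing cells none of the tested members was called against either control by edgeR (0 and 1 of them at an unadjusted p under 0.05 against UC and VC-T) or by DESeq2, with backgrounds of 0.489%, 1.61% and 2.3% against UC and 0.485%, 4.34% and 0.22% against VC-T.

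In spermatids 6 weeks after the last dose, Stag1 and Sgo2a were higher in R than in both controls, and Smc3, Nipbl and Rec8 did not pass. Against UC 3 of 8 tested members passed (37.5%) and against VC-R 2 of 8 (25%), with backgrounds of 35.4% and 31.3%. The members were thus called about as often as all genes. Sgo2a was at 11.6, 14.0 and 15.8 CPM in R, 6.14, 8.44 and 9.22 in UC and 9.21, 8.68 and 6.16 in VC-R, with R above all controls. Its log2 fold change was 0.85 ± 0.19 (adjusted p = 0.00164) and 0.87 ± 0.19 (adjusted p = 0.00135), called in every fit without 1 library. Stag1 was at 27.3, 22.8 and 27.1 CPM in R, 12.0, 13.5 and 20.7 in UC and 23.2, 16.1 and 12.3 in VC-R, where the highest VC-R library overlapped with R. Its log2 fold change was 0.75 ± 0.17 (adjusted p = 0.00156) and 0.66 ± 0.16 (adjusted p = 0.00366, lost without VC-R 3). Rad21 was at 51.5, 51.4 and 44.7 CPM in R and 50.5, 52.6 and 71.5 in VC-R, which overlapped, and passed against UC alone, with -0.40 ± 0.12 (adjusted p = 0.0162, lost without R 3 or UC 2).

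These recovery values depended on which spermatids were counted. In 4 spermatid clusters more than 50% of the cells came from R, with a median of 1327 to 1696.5 UMIs per cell, and they held 64.1 to 80.1% of R spermatids, 9.16 to 32.4% of those of UC, 3.01 to 21.1% of those of VC-R and 71.4% of those of VC-T 2. Without them, an alternative chosen after seeing the data, Stag1 was at -0.023 ± 0.16 against UC and -0.042 ± 0.18 against VC-R. Sgo2a was then at 0.68 ± 0.21 (adjusted p = 0.0806) and 0.69 ± 0.20 (adjusted p = 0.341), so none of these 4 calls remained, while Rad21 was at -0.37 ± 0.097 against UC (adjusted p = 0.0404). The share of all genes called was then 2.41% against UC and 0.0225% against VC-R. With equal cells per pseudotime bin Sgo2a was at 1.22 ± 0.21 and 1.02 ± 0.22 and passed in both (adjusted p = 0.000242 and 0.00125), where 33.6% and 30.8% of all genes did. Stag1 was then at 0.74 ± 0.21 (adjusted p = 0.00987) and 0.24 ± 0.19 (adjusted p = 0.347). Rad21 was at -0.91 ± 0.14 against UC (adjusted p = 8.39e-05) and -0.71 ± 0.15 against VC-R (adjusted p = 0.00119), and Nipbl at 0.32 ± 0.091 and 0.36 ± 0.098 (adjusted p = 0.011 and 0.00828), so that matching brought Nipbl past the threshold against both controls and Rad21 past it against VC-R as well. Smc3 passed against UC alone, at 0.29 ± 0.097 (adjusted p = 0.0273), which made 5 of 8 members against UC and 3 of 8 against VC-R. In the pooled bins Rad21 was 73.6 unscaled CPM in R and 149.8 in UC at bin 8. Rad21 in T was still called without the 4 clusters, at -1.53 ± 0.14 against UC and -1.52 ± 0.20 against VC-T, among 56.2% and 56.8% of all genes.

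Over all spermatocytes and all spermatogonia of R no member passed against UC or VC-R by edgeR (1 in each class against UC and none against VC-R at an unadjusted p under 0.05) or by DESeq2, with backgrounds of 2.98% and 0.484% against UC and 0% against VC-R in both classes. Of the spermatogonia-like cells of R, 144 of 224 were in 1 of the 4 clusters without a stage, led by Car2, Tssk6, Tppp2 and the protamine gene Prm2, which held 43 of 301 in UC and 20 of 210 in VC-R. Without the 4 clusters 0 of 7 members passed in R spermatogonia against UC or VC-R (1 and 0 at an unadjusted p under 0.05), with backgrounds of 1.25% and 0.0303%. In leptotene and zygotene, pachytene, and diplotene and dividing cells 1, 0 and 0 of 7 members passed against UC (0 and 0 of the last pair at an unadjusted p under 0.05 or by DESeq2), with backgrounds of 3.28%, 1.56% and 3.04%. Against VC-R 0 of 7 passed in each by edgeR (1, 0 and 0 at an unadjusted p under 0.05) or DESeq2, with backgrounds of 0.638%, 0% and 0%. The 1 value was Smc3 in leptotene and zygotene, at 260.5, 389 and 367 CPM in R and 536, 405 and 539 in UC, which did not overlap. VC-R, at 313, 407 and 540.2 CPM, overlapped with R. The log2 fold change against UC was -0.56 ± 0.15 (adjusted p = 0.0243, lost without R 1, UC 1 or UC 3), and it was -0.57 by DESeq2 (adjusted p = 0.118).

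In spermatozoa-like cells 1 of 8 members was called in R against UC (background 7.79%), Smc1b, at 55.2, 48.4 and 58.0 CPM in R and 47.9, 34.4 and 39.7 in UC. Its log2 fold change was 0.39 ± 0.098 (adjusted p = 0.00995, lost without R 3 or UC 2) at a level not above that in macrophage-like cells of R given earlier. None of 8 was called against VC-R (52.8, 36.3 and 29.8 CPM for Smc1b) by edgeR (4 at an unadjusted p under 0.05) or DESeq2, where 0% of all genes were. In Sertoli-like cells 3 of 7 were called in R against UC (background 28.7%), Stag1 at -1.65 ± 0.44, Rad21 at -0.93 ± 0.30 and Smc1b at 1.08 ± 0.32, from 25, 41 and 88 cells in the UC libraries. Stag1 was there at 63.5, 54.9 and 40.2 CPM in R and 16.1, 147 and 159 in UC, which overlapped, and the 5 spermatozoa markers summed to 5203 to 5449 and 1991 to 4646 unscaled CPM, with all 5 detected in each. In R, 2837 Sertoli-like cells lay in a cluster with a median of 1375 UMIs and 39 in a cluster with 3379. UC had 86 and 68 cells in these clusters, so the cell mix differed. The parts of this cell mix and of germ cell RNA in the 3 called values were not tested. Without 1 library the call of Rad21 held in 0 of 6 fits, that of Smc1b in 1 of 6 and that of Stag1 in 2 of 6. None of 7 was called against VC-R by edgeR (1 at an unadjusted p under 0.05), 1 was by DESeq2, and 0% of all genes were by edgeR. T against UC and against VC-T called none of 4 and none of 5 in Sertoli-like cells by edgeR (0 and 1 at an unadjusted p under 0.05) or DESeq2, with 0% of all genes called in each.

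Whether the change against vehicle differed between treatment and recovery was tested directly as an interaction. In spermatids 5 of 8 members passed, where 48.1% of all genes did. The change in T minus that in R was -0.97 ± 0.22 for Rad21 (adjusted p = 0.00161), 0.68 ± 0.18 for Rec8 (adjusted p = 0.00463) and 0.56 ± 0.14 for Nipbl (adjusted p = 0.00308), and these 3 held in all 11 fits without 1 library. It was 0.39 ± 0.13 for Smc3 (adjusted p = 0.0217, lost without R 2) and 0.32 ± 0.12 for Smc1b (adjusted p = 0.0326, held in 5 of 11). With equal cells per bin in all 4 groups, an alternative chosen after seeing the data, the values for Rad21, Nipbl and Smc3 were 0.76, -0.27 and -0.12, with the sign turned, and 0 of 8 members passed by edgeR (2 at an unadjusted p under 0.05, background 3.71%). Without the 4 clusters mostly of R cells 5 of 8 passed, where 43.3% of all genes did, with Rad21 at -1.30 ± 0.23.

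In spermatocytes 1 of 9 members passed the interaction, where 3.26% of all genes did, and it was Rad21l. It was counted 1, 3 and 2 times in the T libraries, 24 and 7 in VC-T 2 and 3, 12, 13 and 27 in R and 10, 6 and 3 in VC-R. The difference was -3.64 ± 0.74 (adjusted p = 0.0131), called in 5 of the 6 fits without 1 library in which it could be tested, and without VC-T 2 it was -2.78 (adjusted p = 0.163). In leptotene and zygotene cells, where Rad21l is expressed, it was at 24.2, 76.2 and 37.1 CPM in T and 50.4 and 29.5 in VC-T, which overlapped. These cells gave 1, 2 and 1 of the UMIs in T, 24 and 7 in VC-T and 12, 13 and 25 in R, and T had 24, 11 and 12 such cells. In sums over all spermatocytes, fewer cells of a type and less RNA per cell cannot be told apart, and the stage values of T rest on few UMIs. In spermatogonia and Sertoli-like cells none of 8 and none of 7 members passed the interaction in edgeR (1 and 0 at an unadjusted p under 0.05), with backgrounds of 1.49% and 0.0433%.

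The share of other cohesin pathway genes called in T spermatids was not above that of all genes. Of 22 listed (the remaining subunits, the release factors WAPL and PDS5, acetyltransferases, the loader partner MAU2, CTCF, separase control and the checkpoint kinase BUB1), 18 were tested in T against UC spermatids. There 6 were higher and none lower (33.3%, beside 46.7% of all genes), with a median log2 fold change of 0.36 against 0.041 over all genes. Against VC-T 6 of 19 were higher and none lower (31.6%, beside 44.8%). Called in both comparisons were Bub1, a checkpoint kinase (0.88 ± 0.11 against UC and 0.98 ± 0.12 against VC-T), Wapl, which opens the ring (0.70 ± 0.14 against UC and 1.06 ± 0.14 against VC-T), Pds5b, its partner (0.83 ± 0.22 against UC and 0.76 ± 0.27 against VC-T), Ctcf, which stops loop extrusion (0.72 ± 0.19 against UC and 0.58 ± 0.17 against VC-T), and Chtf18, of the replication clamp loader that aids cohesion (1.10 ± 0.25 against UC and 0.98 ± 0.27 against VC-T). Both comparisons share the T libraries. VC-T 1, which was not in these fits, stood close to or among the T libraries for some of them, with Wapl at 59.0 CPM beside 59.7, 58.9 and 62.2 in T, Ctcf at 22.7 beside 23.5, 19.8 and 23.3 and Bub1 at 70.2 beside 80.6, 90.0 and 90.7. With equal cells per pseudotime bin none of the 5 passed against UC and none of the 4 that could be tested passed against VC-T. Bub1, Wapl, Pds5b, Ctcf and Chtf18 were then at 0.32 ± 0.13, 0.33 ± 0.15, 0.54 ± 0.35, 0.55 ± 0.22 and 0.83 ± 0.39 against UC, of which all but Pds5b had an unadjusted p under 0.05. Plk1, a mitotic kinase that releases cohesin, was the 1 of 14 pathway genes called against UC with equal cells, lower in T at -0.55 ± 0.15, and 0 of 11 were called against VC-T (2 at an unadjusted p under 0.05). In spermatocytes none of 16 was called in T against UC by edgeR (2 at an unadjusted p under 0.05) or DESeq2.

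The smallest adjusted p-values in that spermatocyte comparison belonged to Chtf18 (log2 fold change 0.48, adjusted p = 0.0891), Dscc1 (0.84, adjusted p = 0.163), Esco2, an acetyltransferase of SMC3 (-0.56, adjusted p = 0.192), Bub1 (-0.17, adjusted p = 0.194) and Pttg1, which encodes securin (-0.13, adjusted p = 0.217). Wapl, Mau2, Cdca5, Plk1 and Pds5a followed at -0.094, -0.21, 0.21, -0.16 and 0.12, with adjusted p from 0.371 to 0.541. Esco2 alone of 17 was called in spermatocytes against VC-T, lower in T (background 9.61%). It was at 11.2, 7.47 and 13.2 CPM in T, 36.7 and 17.4 in VC-T 2 and 3 and 8.37 in VC-T 1. In leptotene and zygotene cells, scarce in T, Esco2 was at 217, 229 and 334 CPM in T and 355 and 219 in VC-T 2 and 3, which overlapped. The part of this cell mix in the Esco2 call was not tested. By stage, Esco1 was higher in leptotene and zygotene cells of T against UC (1 of 5 tested, background 23.1%). Pttg1 was lower in diplotene and dividing cells of T against UC (1 of 14, background 2.3%). Pds5b and Chtf18 were higher in pachytene cells of T against VC-T (2 of 16, background 24.3%). DESeq2 called 0, 1 and 0 pathway genes in these fits. In leptotene and zygotene cells of R against UC Pds5b was lower, 1 of 10 tested (background 3.28%, 0 by DESeq2). In Sertoli-like cells of R against UC Pds5a, Pds5b and Mau2 were lower, 3 of 10 tested (background 28.7%). In R spermatids 2 of 18 pathway genes were called against UC (Dscc1 and Esco1, 1 in each direction) and 3 of 19 against VC-R (Mau2, Dscc1 and Hdac8), with backgrounds of 35.4% and 31.3%. In spermatogonia no pathway gene was called in any of the 4 comparisons by edgeR (3, 3, 1 and 1 at an unadjusted p under 0.05 in T against UC, T against VC-T, R against UC and R against VC-R) or DESeq2. The interaction called 5 of 20 in spermatids, all with a positive value of T minus R, where 48.1% of all genes were called.

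Among 16 genes of condensin and of the SMC5/6 complex, the other SMC rings of the nucleus, 6 of 16 were called in T against UC spermatids and 5 of 16 against VC-T, all higher in T, beside the same backgrounds. In R spermatids 5 of 16 were called against UC and 5 of 16 against VC-R, 4 of them higher in each, with backgrounds of 35.4% and 31.3%. In pachytene 2 of 16 were called in T against UC and 4 of 16 against VC-T, in both directions, with backgrounds of 18.6% and 24.3%.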

How the data were processed

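The authors aligned reads of 15 libraries to mm10 with Cell Ranger (3.0.0 in the submitters' processing notes, 7.0.0 in the matrix headers) and deposited UMI counts per gene and cell, without normalization. Barcodes below 500 genes or below 1000 UMIs, or with 30% or more mitochondrial UMIs, were dropped, and the 5.4% of cells with the highest Scrublet scores were removed per library. No correction for free RNA was made here. Cells were clustered in scanpy 1.11.5 (2000 variable genes, 30 components, Leiden resolution 1.2). In clusters that did not meet the naming criteria 5847 cells stayed unnamed, beside the 641 spermatogonia-like cells without a stage. Libraries held 9673587 to 98724982 UMIs, and floors for a count of 0 (3 counts) cover counting error only.

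Counts were summed per library and cell group of at least 10 cells and tested with edgeR 4.0.16 (R 4.3.3, TMM scaling, quasi-likelihood, Benjamini-Hochberg over all genes tested, adjusted p below 0.05 called). On simulated counts for 11934 genes of the spermatocyte comparison of T with UC, 194 of 200 changed genes were recovered with 4 false calls. The simulation used a fixed fold and a fixed dispersion, with changes only in genes above a set level. It does not measure recovery or false calls for smaller changes, scarcer genes or sums of few cells. Alternatives were DESeq2 1.42.0, other scaling, filters and cell sets, a replicate block, leaving out libraries and equal cells per pseudotime bin. Pseudotime was computed without the 9 genes and the related cohesin genes. VC-T 1 was left out of tests because the study left it out, and it was added back as an alternative. The cohesin genes and lists were chosen with earlier results of these data known. Values are given for the 9 genes, for pathway genes called in T against both controls in spermatids, for the 10 pathway genes of smallest adjusted p in T against UC spermatocytes and for the 1 most similar gene per member. Other genes are named where a count was 5 or fewer, after their values were seen.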

Additional observations from a re-analysis of the deposited data

Results flagged for a closer look

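6 cohesin genes passed the interaction test of treatment against recovery in edgeR with Benjamini-Hochberg adjustment. The share of all genes called was 48.1% in spermatids and 3.26% in spermatocytes. The change in T against VC-T minus the change in R against VC-R, on the log2 scale, was -3.64 for Rad21l in spermatocytes. In spermatids it was -0.97 for Rad21, 0.68 for Rec8, 0.56 for Nipbl, 0.39 for Smc3 and 0.32 for Smc1b. Rad21l rested on 6 UMIs in T, and its call was lost without VC-T 2. The call of Smc1b held in 5 of 11 fits without 1 library. With equal cells per pseudotime bin 0 of 8 members passed in spermatids, and the sign turned for Rad21, Nipbl and Smc3. None of the 6 was called with VC-T 1 added as a vehicle library.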

How the results depend on the processing

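Members called per set of fits are given with their counts under other settings. In T against UC by class, 6 calls became 2 with equal cells per pseudotime bin, 1 with a log2 fold change over 1 required and 2 to 5 without 1 library (2 without UC 1). The 2 calls with equal cells were Nipbl in spermatocytes and Smc1b in spermatogonia, and none of the 6 was kept. In T against VC-T by class, 7 became 1 with equal cells, 0 with VC-T 1 added, 2 with the fold required and 3 to 8 without 1 library (3 without VC-T 2). In R against UC by class, 7 became 2 with all groups in 1 fit, 4 with the replicate block, 2 with the fold required and 2 to 7 without 1 library (2 without R 3 or UC 2, 4 without R 2 or UC 3). In R against VC-R by class, 2 became 4 by DESeq2, 0 with the fold required, 0 without the clusters mostly of R cells and 1 to 10 without 1 library (10 without VC-R 1, 1 without VC-R 3). By stage, 7 calls in T against UC became 4 by DESeq2, 3 with all groups in 1 fit, 4 in cells with at least 1000 genes, 3 without a filter, 1 with the fold required and 3 to 6 without 1 library (3 without T 3). The 1 call in T against VC-T by stage became 2 by DESeq2, with all groups or without a filter, 0 with VC-T 1 and 0 to 2 without 1 library (0 without VC-T 3, 2 without T 2, T 3 or VC-T 2). The 1 call in R against UC by stage became 0 by DESeq2, with all groups, with at least 1000 genes, without a filter and with the fold required, and 0 to 1 without 1 library (0 without R 1, UC 1 or UC 3), while 0 in R against VC-R became 0 to 1 (1 without VC-R 1). The interaction's 6 calls became 0 with VC-T 1, 0 with equal cells and 4 to 8 without 1 library.

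Signs turned with equal cells for Nipbl (-0.041) in T against UC, Rad21 (0.15) in T against VC-T, and Nipbl (-0.27), Rad21 (0.76) and Smc3 (-0.12) in the interaction, and without the clusters mostly of R cells for Stag1 (-0.023 against UC, -0.042 against VC-R). With plain library totals the UC level was 1254 CPM for Smc1b in leptotene and zygotene, 465 for Stag1 in Prss50-led cells and 608 for Smc3 in undifferentiated spermatogonia (606 in cells with at least 1000 genes), and 718 for Nipbl in pachytene. Over the 37 called values, 347 of 500 refits kept the call and direction, 146 lost the call and 7 reversed. The cause was not tested. Same-numbered libraries did not deviate together (r from -0.21 to 0.19 over 33 pairs), so the numbers do not pair them, and the block changed a count by over 1.5 times in R against UC by class alone. Depth limits Rad21l and Rec8, and cell number limits the leptotene and zygotene cells of T.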
